A study of Rattus norvegicus with 42 samples.

Results

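Receptors for extracellular ATP, ADP and adenosine were examined in the hippocampus of rat pups after a single early exposure to an anti-seizure drug. The 10 genes were those of the count table whose symbol was P2rx1, P2rx2, P2rx4, P2rx5, P2rx6, P2rx7, P2ry1, Adora1, Adora2a or Adora2b, whatever their values. They held 13 of the 15516 transcripts in the table, and 10 transcripts of 9 of these genes passed the filter on low counts that left 13062 transcripts for testing. The transcripts that did not pass were the single one of P2rx5 and 2 of the 3 of P2rx1.

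Male Sprague Dawley pups, a wild-type outbred stock, were injected intraperitoneally on postnatal day 7 with saline as the vehicle (VEH), with phenobarbital at 75 mg/kg (PB) or with levetiracetam at 200 mg/kg (LEV), and returned to the dam. Hippocampi were dissected 72 h later, on postnatal day 10, from 14 animals per group, and 1 library was sequenced per animal. Every group therefore shared the injection and the return to the dam, and each took 1 pup per litter. One VEH animal, number 7, is marked in its label as excluded. Without it the comparisons held 13 animals of the VEH group and 14 of each drug group. The labels carry 2 forms of sample code, the first for animals 1 to 6 and the second for animals 7 to 14 of each group. The labels also state that animals came in 2 orders, without saying which animals belonged to which.

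ATP and ADP released from neurons and glia act on purinergic receptors. The P2X receptors are ATP-gated cation channels assembled as trimers, and the P2Y receptors couple to G proteins. Enzymes on the cell surface degrade ATP to adenosine, which acts on the adenosine receptors. In the hippocampus the A1 receptor, the product of Adora1, is known to lower transmitter release and neuronal excitability through inhibitory G proteins, while the receptors encoded by Adora2a and Adora2b raise cyclic AMP. The deposited comparison addresses which transcripts differ after either drug at a time when the drugs are thought to have been cleared.

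Library totals ran from 9499492 to 14488134 estimated counts per animal. All 8 markers of hippocampal neurons that were listed, among them Prox1, Neurod6 and Slc17a7, passed the filter, and their summed normalized counts ran from 20328 to 25421 in VEH, from 18590 to 22216 in PB and from 17860 to 24875 in LEV. Markers of other tissue varied widely between animals. The summed choroid plexus markers ran from 73.6 to 53404 in VEH, from 98.7 to 84603 in PB and from 74.6 to 61109 in LEV. VEH animal 1 stood apart, although the labels give males. From the Y chromosome, Eif2s3y stood at a normalized count of 0.825 in this animal and between 731.1 and 1069 in the other 40, and Ddx3 at 0 against 518.6 to 878.6. The Adora1 and P2rx2 comparisons are therefore also given without this animal.

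In the comparison of PB with VEH, Adora1 was lower after PB by a small margin that passed the adjusted p limit but not the limit on the fold change, and P2rx2 was higher by a larger margin that missed the adjusted p limit. None of the other 7 tested receptor genes passed an unadjusted p of 0.05 for this drug. With both limits applied, an adjusted p under 0.05 and a log2 fold change of at least 0.32 in size, 0 of the 10 receptor transcripts were called, against 79 of the 13062 tested transcripts, or 0.605%. With the adjusted p alone the count was 1 of 10, Adora1, against 5.39% of all transcripts in either direction and 3.46% in the lower direction. At an unadjusted p under 0.05 it was 2 of 10, against 20.2%. That last share was close to the background. The test throughout was edgeR's quasi-likelihood test with the form of the sample code as a further term and Benjamini-Hochberg adjustment over all tested transcripts.

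**Figure D1:**
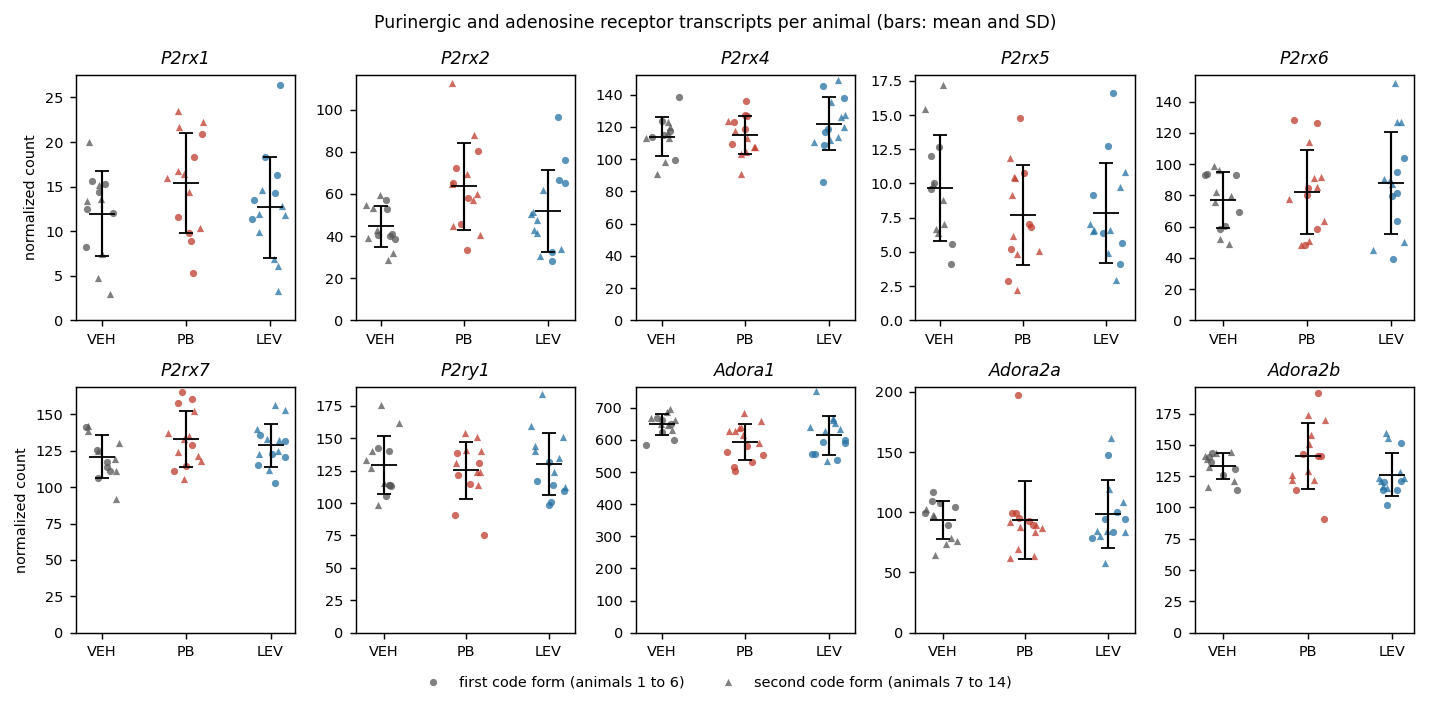
Normalized counts (y axes, each starting at 0) of the 10 receptor genes in each animal, summed over the transcripts of a gene, by treatment (x axes). Circles are animals with the first form of sample code and triangles those with the second, and the bars give the mean and SD of 13 VEH, 14 PB and 14 LEV animals. In the Adora1 panel 6 PB animals lie below every VEH animal, and in the P2rx2 panel 8 PB animals lie above every VEH animal.

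Adora1 (chr13:51043498-51075808 in rn6, transcript NM_017155) was the one receptor transcript with an adjusted p under 0.05. Its normalized counts, here and below rounded counts scaled to a common effective library size, ran from 583 through a median of 650 to 697 in VEH, from 503 through 603 to 683 in PB, and from 534 through 614 to 753 in LEV. The groups overlapped, with 6 of 14 PB animals and 4 of 14 LEV animals below the lowest VEH animal. Means were 648 ± 32.3 (SD, n = 13) in VEH, 594 ± 55.9 (SD, n = 14) in PB and 614 ± 60.3 (SD, n = 14) in LEV. The log2 fold change of PB against VEH was -0.13 with an SE of 0.04 (95% interval -0.21 to -0.06, edgeR adjusted p = 0.0190), a fold of 1.10, and this direction was seen in 13 of 14 PB animals when each was set against the VEH mean within its code form. Leaving out any 1 of the 41 animals kept the adjusted p between 0.00941 and 0.0384, and without VEH animal 1 the change was -0.13 (edgeR adjusted p = 0.0291). The adjusted p limit was no longer met when the code form was left out of the model, at a change of -0.13 and an edgeR adjusted p of 0.129. In bulk tissue, fewer cells that carry a transcript and less of it per cell cannot be told apart.

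After LEV the Adora1 mean lay between those of VEH and PB, and the difference from VEH did not pass the adjusted test. The log2 fold change of LEV against VEH was -0.09 (SE 0.04, 95% interval -0.16 to -0.01, unadjusted edgeR p = 0.0218, adjusted p = 0.806), with that direction in 12 of 14 LEV animals. The direct comparison of PB with LEV gave -0.05 (95% interval -0.12 to 0.02, edgeR adjusted p = 0.464), so that a difference between the drugs was not shown for this receptor. Both drug comparisons rest on the same 13 VEH animals.

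The Adora1 difference between PB and VEH was larger in the first code form than in the second, by a margin that did not pass the adjusted test. Among animals 1 to 6, Adora1 ran from 583 to 669 in VEH and from 503 to 580 in PB, so that these 6 PB animals all lay below these 6 VEH animals, a lack of overlap seen in 1.36% of all tested transcripts. Among animals 7 to 14 it ran from 630 to 697 in VEH and from 590 to 683 in PB, which overlapped widely. The log2 fold changes were -0.22 (SE 0.05, edgeR adjusted p = 0.0629) in the first form and -0.06 (SE 0.05, edgeR adjusted p = 0.450) in the second. Their difference was 0.16 (SE 0.07, unadjusted edgeR p = 0.0239), with an adjusted p of 0.367, and 11.1% of all transcripts had an unadjusted p under 0.05 in this test. For LEV the same order was seen, with -0.14 (SE 0.05) in the first form and -0.04 (SE 0.05) in the second, and a difference of 0.10 (edgeR adjusted p = 0.556).

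Letters of the region just upstream of the Adora1 start are shown because this was the receptor that passed the adjusted test, and those of P2rx6 because it tracked a group of other transcripts most closely (below). Both are the 250 bases before the RefSeq start, on the minus strand of GRCr8 and written 5′ to 3′ in gene orientation. The Adora1 stretch lies at chr13:48246832-48247081 and the P2rx6 stretch at chr11:96954204-96954453.
Adora1: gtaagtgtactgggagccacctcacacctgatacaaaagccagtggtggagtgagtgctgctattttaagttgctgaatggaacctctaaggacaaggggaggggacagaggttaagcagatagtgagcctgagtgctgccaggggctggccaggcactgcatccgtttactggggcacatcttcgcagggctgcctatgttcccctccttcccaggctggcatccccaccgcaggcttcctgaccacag
P2rx6: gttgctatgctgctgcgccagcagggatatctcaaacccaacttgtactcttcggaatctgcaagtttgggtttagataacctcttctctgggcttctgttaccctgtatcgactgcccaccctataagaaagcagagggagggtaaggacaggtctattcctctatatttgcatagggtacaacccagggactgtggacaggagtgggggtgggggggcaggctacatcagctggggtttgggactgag
Their GC contents were 56.8% and 52.4%, against a median of 51.2% over 33469 rat promoters of the same length. A search of both strands for TATAAA (the TATA box, in 12.9% of all these promoters), CCAAT (34.0%), GGGCGG (the GC box, 30.5%), TGACGTCA (the cyclic AMP response element, 1.59%), AGGTCA (a nuclear receptor half-site, 14.1%) and GTTGCC (an RFX half-site, 9.89%) found no match in either stretch, and capitals would have marked one. The RefSeq table held such a stretch for 7 of the 10 receptor genes, and GGGCGG occurred in 3 of them, Adora2b, P2rx7 and P2ry1. CCAAT occurred in that of Adora2b alone, and GTTGCC in that of P2rx7 alone, where it overlaps a GGGCGG. These are matches of letters and nothing is drawn from them about any factor.

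Among the ATP-gated channels, P2rx2 (chr12:52397811-52401006, NM_053656) had the smallest p after PB. P2rx2 encodes a P2X subunit that forms slowly desensitizing channels, alone or together with P2rx3. Its normalized counts ran from 28.9 through a median of 41.1 to 59.3 in VEH, from 33.4 through 62.2 to 112 in PB, and from 28.3 through 49.0 to 96.4 in LEV. The lower part of the PB range overlapped the VEH range. Even so, 8 of 14 PB animals and 5 of 14 LEV animals exceeded the highest VEH animal. Means were 44.6 ± 9.69 (SD, n = 13) in VEH, 63.7 ± 20.7 (SD, n = 14) in PB and 51.8 ± 19.6 (SD, n = 14) in LEV. The log2 fold change of PB against VEH was 0.51 (SE 0.17, 95% interval 0.17 to 0.85, a fold of 1.43), with an unadjusted edgeR p of 0.00402 and an adjusted p of 0.0618, and this direction was seen in 12 of 14 PB animals.

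This P2rx2 result sat at the limit of the test. The adjusted p fell below 0.05 with DESeq2 in place of edgeR (log2 fold change 0.52, DESeq2 adjusted p = 0.0403) and when the code form was subtracted before DESeq2 (0.49, adjusted p = 0.0308). It also fell below 0.05 in 4 of the 41 edgeR fits that left out 1 animal, those without PB animal 3, PB animal 4, PB animal 12 or LEV animal 5, with adjusted p-values of 0.0329, 0.0464, 0.0485 and 0.0499. It rose furthest, to 0.142 with a change of 0.42, without PB animal 7, whose 112 was the highest value of all. Without VEH animal 1 the change was 0.54 (edgeR adjusted p = 0.0599).

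The P2rx2 difference had the same direction in both code forms. In animals 1 to 6 the means were 45.0 in VEH and 59.2 in PB (log2 fold change 0.40, SE 0.25, edgeR adjusted p = 0.620), and in animals 7 to 14 they were 44.4 and 67.0 (0.59, SE 0.22, edgeR adjusted p = 0.102). The difference between the forms was 0.19 (edgeR adjusted p = 0.891). After LEV the values split by code form, with a mean of 60.9 in the first form, where the change was 0.43 (SE 0.25), and of 45.0 in the second, where it was 0.01 (SE 0.23). That difference of -0.42 did not pass the test either (edgeR adjusted p = 0.645). Over all animals LEV against VEH gave 0.21 (95% interval -0.13 to 0.55, edgeR adjusted p = 0.930), and PB against LEV gave 0.30 (95% interval -0.03 to 0.64, edgeR adjusted p = 0.303).

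**Figure D2:**
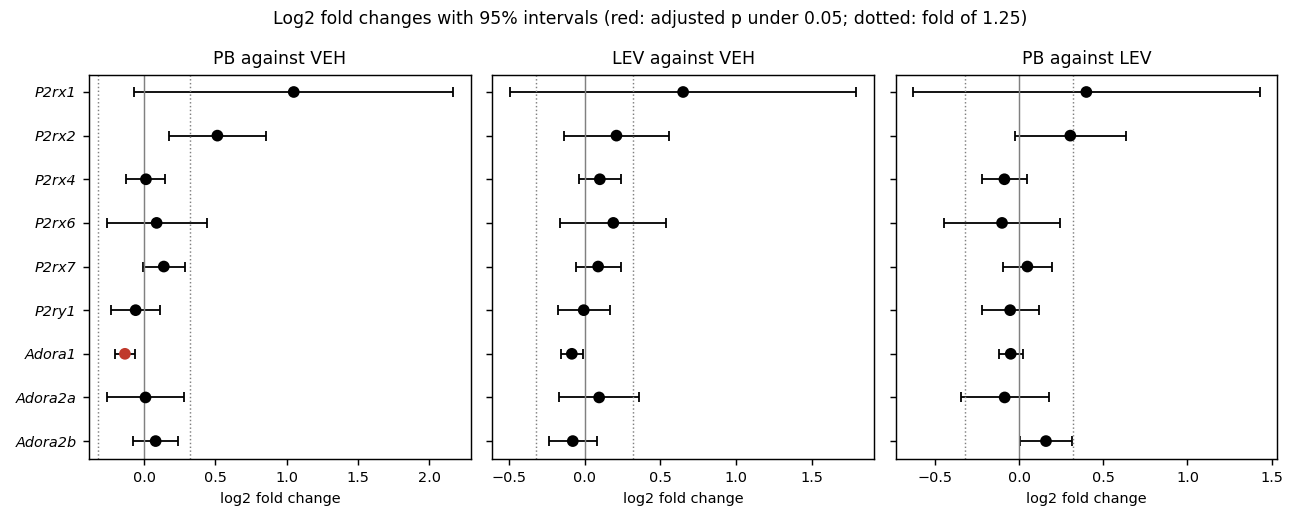
Log2 fold changes (x axes) with 95% intervals of the 9 tested receptor genes for PB against VEH, LEV against VEH and PB against LEV, with the scale of the x axis set separately in each panel. Each point is 1 transcript, with the 2 identical transcripts of Adora2a drawn once, and the dotted lines mark the fold limit, 0.32 on the log2 scale, in either direction. Adora1 after PB, at -0.13, is the one red point, with an adjusted p under 0.05, while P2rx2 after PB lies at 0.51 with an interval from 0.17 to 0.85, and the widest intervals are those of P2rx1.

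P2rx4 and P2rx7, neighbours on chromosome 12 that lie 27938 bases apart, encode the P2X subunits best known from microglia, and P2X7 opens only at high ATP. P2rx4 (chr12:39308023-39325674, NM_031594) measured 114 ± 12.3 in VEH, 115 ± 12.0 in PB and 122 ± 16.6 in LEV (SD, n = 13, 14 and 14). Its log2 fold changes were 0.01 for PB (95% interval -0.12 to 0.15) and 0.10 for LEV (95% interval -0.04 to 0.24), and both intervals lay within the fold limit. P2rx7 (chr12:39353613-39396043, NM_019256) measured 121 ± 14.8 in VEH, 133 ± 19.4 in PB and 129 ± 14.9 in LEV. Its ranges overlapped, from 92.0 to 142 in VEH, from 106 to 165 in PB and from 103 to 156 in LEV, with 4 of 14 PB animals above every VEH animal. The change was 0.14 for PB (95% interval -0.01 to 0.29, edgeR adjusted p = 0.289) and 0.09 for LEV (95% interval -0.06 to 0.24, edgeR adjusted p = 0.930). The summed markers of microglia had a median of 2758 in VEH, against 2738 in PB and 2741 in LEV, and 0 of its 10 transcripts tested passed an adjusted p of 0.05 for either drug.

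P2rx6 (chr11:87435185-87445222, NM_012721) encodes a P2X subunit that forms working channels poorly on its own. It varied widely within every group, from 48.9 to 98.6 in VEH, from 48.3 to 128 in PB and from 39.4 to 152 in LEV, with means of 77.0 ± 17.7, 82.1 ± 26.9 and 88.0 ± 32.5 (SD, n = 13, 14 and 14). The groups overlapped over most of this span. The log2 fold changes were 0.09 for PB (95% interval -0.26 to 0.44) and 0.19 for LEV (95% interval -0.16 to 0.54), so that changes beyond the fold limit were within both intervals.

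P2rx1 (chr10:59566268-59581328) and P2rx5 (chr10:59725524-59737126), which lie 144195 bases apart, encode a fast desensitizing and a weakly conducting P2X subunit, and both were at the edge of detection here. P2rx5 (NM_080780) had between 2 and 18 counts per animal and was not tested in the main fit. Its normalized counts averaged 9.65 ± 3.87 in VEH, 7.69 ± 3.63 in PB and 7.85 ± 3.65 in LEV, and a fit with no filter gave log2 fold changes of -0.32 (SE 0.25, edgeR adjusted p = 0.543) for PB and -0.30 (SE 0.25, edgeR adjusted p = 0.917) for LEV. At this depth differences of that size were not detectable.

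For P2rx1 the division of its reads among its 3 transcripts was less stable than the sum. Summed over the transcripts, its normalized counts ran from 3.01 through 13.4 to 19.99 in VEH, from 5.27 through 16.2 to 23.5 in PB and from 3.29 through 12.4 to 26.4 in LEV. Means were 12.0 ± 4.81, 15.4 ± 5.62 and 12.7 ± 5.66 (SD, n = 13, 14 and 14), and the summed gene gave a log2 fold change of PB against VEH of 0.37 (SE 0.23, edgeR adjusted p = 0.380). The authors' estimation gave NM_012997 more than 90% of the P2rx1 count in 20 animals (4 VEH, 8 PB and 8 LEV) and less than 20% in 18 (8 VEH, 4 PB and 6 LEV), with only 3 animals in between. The other transcripts, NM_001142367 and NM_001285415, had values equal to each other in every animal but PB animal 13. There both were close to nothing, at 3.93e-05 and 0.0055. The fold change of NM_012997, the one P2rx1 transcript that was tested, at 1.05 for PB (SE 0.55, edgeR adjusted p = 0.286) and 0.65 for LEV (SE 0.57, edgeR adjusted p = 0.932), therefore includes this division as well as the level of the gene.

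**Figure D3:**
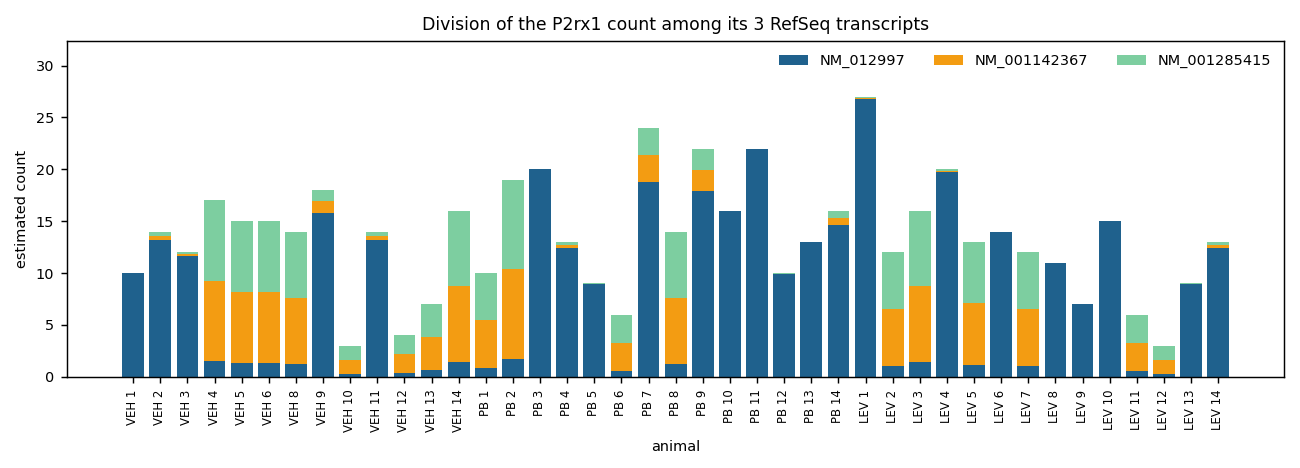
Estimated counts (y axis) of the 3 RefSeq transcripts of P2rx1 in each of the 41 animals (x axis), stacked so that the height of a bar is the count of the gene. In 20 animals nearly the whole bar is NM_012997, and in 18 it is below 20% of the bar with the rest divided equally between the other transcripts.

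P2ry1 (chr2:151314818-151320313, NM_012800), the ADP receptor of the P2Y family that couples to phospholipase C and is present on astrocytes and neurons, did not pass the test after either drug. It ran from 98.8 to 175 in VEH, from 75.4 to 154 in PB and from 98.7 to 184 in LEV, with means of 129 ± 22.4, 125 ± 21.7 and 130 ± 24.1 (SD, n = 13, 14 and 14). The log2 fold changes were -0.06 for PB (95% interval -0.23 to 0.11) and -0.01 for LEV (95% interval -0.18 to 0.17), and both intervals lay within the fold limit.

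The A2 receptors, which raise cyclic AMP, did not pass the test after either drug. Adora2b (chr10:48569566-48586367, NM_017161), the low-affinity adenosine receptor, averaged 133 ± 10.6 in VEH, 141 ± 26.5 in PB and 126 ± 17.1 in LEV (SD, n = 13, 14 and 14). The log2 fold changes were 0.08 for PB (95% interval -0.08 to 0.24) and -0.08 for LEV (95% interval -0.24 to 0.08), and both intervals spanned 0. Without PB animal 2, the highest at 191, the PB change was 0.03. Compared directly, PB against LEV gave 0.16 (SE 0.08, unadjusted edgeR p = 0.0462, adjusted p = 0.243). This was the one receptor transcript of 10 with an unadjusted p under 0.05 in that comparison, against 19.6% of all transcripts, and 0 of 10 had an adjusted p under 0.05, against 4.45%.

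Adora2a (chr20:14265251-14282874), the receptor known above all from the striatum, had a pair of RefSeq transcripts, NM_001357942 and NM_053294, with the same estimated value in every animal, so that their sum is the only measurement. It ran from 64.1 through 97.7 to 116 in VEH, from 62.4 through 89.2 to 197 in PB and from 57.6 through 89.5 to 161 in LEV. The PB spread was set by PB animal 2 at 197, since the next PB animal was at 99.5. Means were 93.4 ± 15.9, 93.5 ± 32.2 and 98.5 ± 28.0 (SD, n = 13, 14 and 14), and the log2 fold change of each transcript was 0.01 for PB (95% interval -0.26 to 0.28), or -0.11 without that animal, and 0.10 for LEV (95% interval -0.17 to 0.36), or 0.0084 without LEV animal 11, the highest of that group. The summed markers of striatum ran from 810.5 to 1249 in VEH, from 855 to 1314 in PB and from 942 to 1473 in LEV, with 0 of 7 past an adjusted p of 0.05.

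LEV against VEH thus gave 0 of 10 receptor transcripts with an adjusted p under 0.05, against 1 of all 13062, or 0.00766%. At an unadjusted p under 0.05 the count was 1 of 10, Adora1, against 5.84% of all. The median log2 fold change of the 10 receptor transcripts was 0.05 for PB against VEH, 0.10 for LEV against VEH and -0.05 for PB against LEV, while that of all tested transcripts was 0.0046, 0.00033 and 0.0033. With Adora2a counted once, the medians over 9 genes were 0.08, 0.10 and -0.05. By gene, 7 of 9 were higher and 2 lower after PB, and 6 were higher and 3 lower after LEV, whatever the p. Both counts rest on the same VEH animals and have no share over all transcripts beside them, so no general rise is read from them.

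The direction of the fold change was the same in both code forms for 7 of the 9 tested genes after PB and for 6 of 9 after LEV. The share of all transcripts with the same direction was not taken, so nothing is drawn from these counts. No test of the difference between the forms passed, with adjusted p-values from 0.367 to 0.948 for PB and from 0.556 to 0.975 for LEV (edgeR). The share of all transcripts that passed was 0.0689% for PB and 0.842% for LEV. Treatment aside, 3 of the 9 tested genes differed between the code forms themselves. Animals with the second form had more Adora1 (log2 difference 0.16, SE 0.03, edgeR adjusted p = 4.22e-05) and P2ry1 (0.26, SE 0.07, edgeR adjusted p = 0.00327) and less Adora2a (-0.29, SE 0.11, edgeR adjusted p = 0.0393). These were 4 of 10 receptor transcripts with Adora2a counted for both of its identical ones, against 30.2% of all transcripts, so the share is not particular to the receptors.

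**Figure D4:**
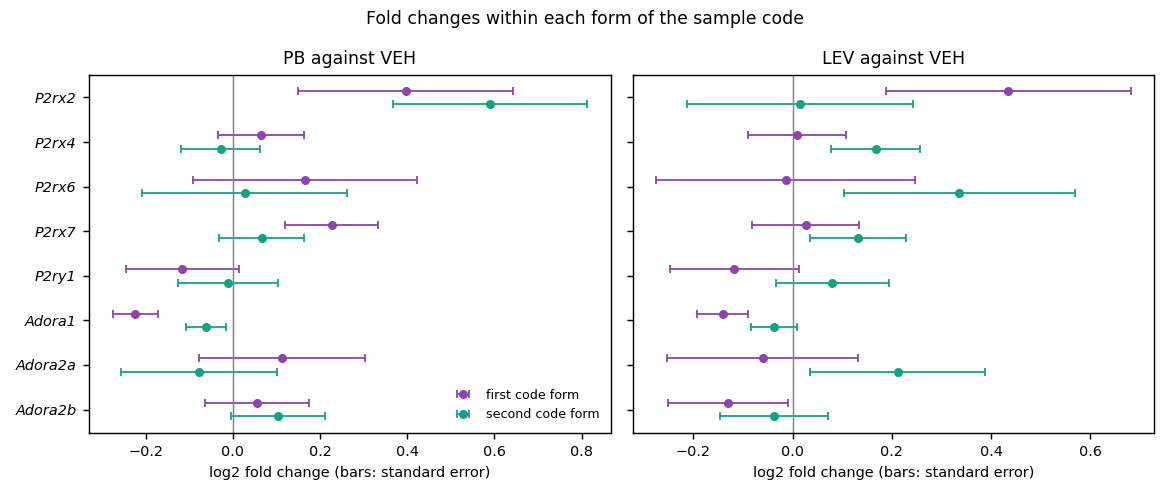
Log2 fold changes with their standard errors (x axes) of 8 receptor genes, PB against VEH and LEV against VEH, within animals 1 to 6 (first code form) and 7 to 14 (second code form). Both come from 1 fit over the 41 animals that let the treatment difference vary between the forms. P2rx1, with standard errors of up to 0.84, is left out. Adora1 after PB is at -0.22 in the first form and -0.06 in the second, and P2rx2 after PB is on the same side of 0 in both.

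The spread among VEH animals was compared with the spread that counting alone would give. Adora1, with the most counts per animal, had a coefficient of variation of 4.99% against 3.89% from counting, and Adora2b had 7.95% against 8.59%. Counting error was thus a large part of the spread of Adora1, whose VEH means also differed between the code forms, at 631 and 663, and was as large as the whole spread of Adora2b. P2rx6 had 23.0% against 11.3%, P2ry1 17.3% against 8.71%, P2rx2 21.7% against 14.8% and Adora2a 16.99% against 10.2%, so that these varied between animals of one group by more than counting. P2rx5, at 40.0% against 32.0%, was mostly counting error. Levels of different receptors are not ranked here, because no transcript lengths were used.

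The receptors showed little joint variation across animals. Over the 41 animals, with the mean of each code form removed from log2 CPM (counts scaled to library size), Spearman's rho for the 36 pairs of receptor genes ran from -0.502 (Adora2b with P2ry1) to 0.340 (Adora2b with Adora2a) with a median of -0.025, and 28 pairs lay between -0.3 and 0.3. P2rx7 and Adora1 had a rho of -0.478. These and the following correlations are descriptions over animals that share sequencing and dissection, and carry no test.

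P2rx2 was most like Calb2, the calcium-binding protein calretinin, with a rho of 0.772, followed by Fxyd6, a regulator of the sodium pump, at 0.764 and the histone variant Macroh2a2 at 0.704. With the treatment means removed as well, these were 0.678, 0.692 and 0.599. Calb2 averaged 760 ± 148 in VEH, 948 ± 151 in PB and 892 ± 179 in LEV, and it was higher after PB by 0.32 on the log2 scale (SE 0.10, edgeR adjusted p = 0.0432), just short of the fold limit, in a direction that the choice by rho partly fixes. P2rx2 also moved with marker sums of the samples. Its rho was -0.500 to the summed markers of hippocampal neurons, 0.550 to those of striatum and -0.450 to those of skeletal muscle. With the treatment means removed these were -0.510, 0.465 and -0.356. The medians of the marker sums were 22392, 21262 and 22139 for hippocampal neurons and 1034, 1183 and 1139 for striatum in VEH, PB and LEV. All 4 skeletal muscle transcripts tested were lower after PB at an adjusted p under 0.05, against 3.46% of all transcripts. Their sums ran from 160 to 513 in VEH and from 103 to 258 in PB. The skeletal muscle list holds Pvalb, which is also in the list of interneuron markers used below. The part of these marker sums in the P2rx2 difference was not tested.

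Adora1 was most like Syt11 at a rho of 0.742, a synaptotagmin of vesicle trafficking, Shank3 at 0.738, a scaffold of the postsynaptic density, and Rasl10b at 0.703. Without the treatment means these were 0.551, 0.586 and 0.541. All of them were lower after PB, a direction that the choice by rho partly fixes because the treatment difference was left in it, with log2 fold changes of -0.19 for Syt11 (edgeR adjusted p = 0.00158), -0.17 for Shank3 (edgeR adjusted p = 0.0190) and -0.18 for Rasl10b (edgeR adjusted p = 0.0487). The rho of Adora1 was 0.628 with the summed markers of hippocampal neurons and -0.502 with those of striatum, opposite in sign to those of P2rx2. With the treatment means removed these Adora1 values were 0.579 and -0.273. None of the 8 hippocampal neuron markers passed an adjusted p of 0.05 between PB and VEH. Even so, the highest sum of these markers in PB, 22216, lay below the VEH median of 22392. Of the 8 interneuron transcripts tested, 3 were lower after PB at an adjusted p under 0.05, against 3.46% of all transcripts. Their sums ran from 5253 to 7485 in VEH and from 4306 to 7025 in PB. The rho of Adora1 with the interneuron sum was 0.341, and 0.160 with the treatment means removed. What these marker sums contribute to the Adora1 difference was not tested.

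P2rx6 had the closest companions of any receptor, namely Efhb at a rho of 0.844, Cfap126 at 0.827 and Slc44a4 at 0.820, where 1% of all transcripts reached 0.668 or more. Efhb and Cfap126 encode proteins of motile cilia, and Slc44a4 a choline transporter. With the treatment means removed these were 0.826, 0.807 and 0.823. The rho of P2rx6 with the summed choroid plexus markers was 0.667, and 0.590 with the treatment means removed. Those sums had a median of 2712 in VEH, against 8297 in PB and 21223 in LEV, with 0 of 9 transcripts past an adjusted p of 0.05, and their part in the P2rx6 spread was not tested.

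**Figure D5:**
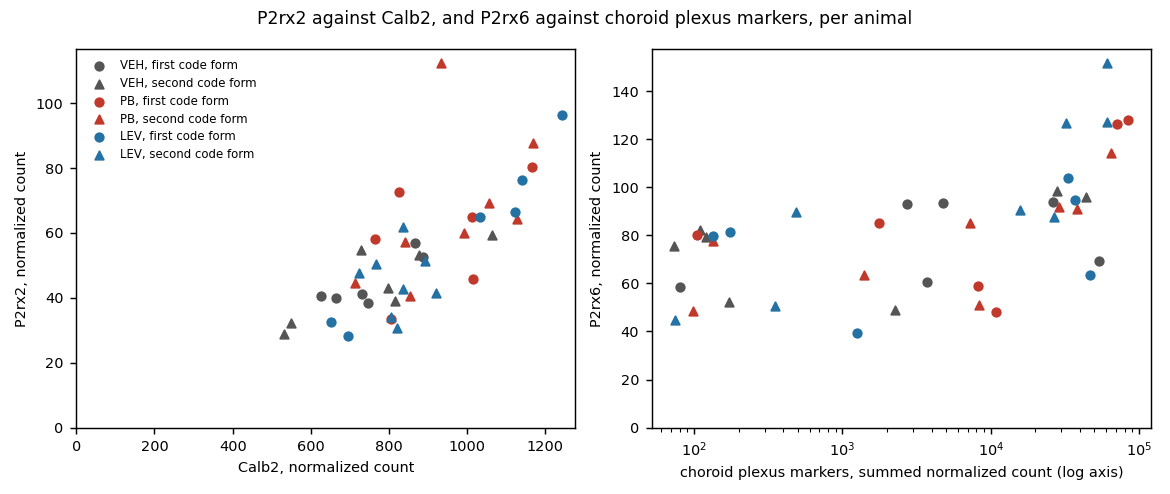
Normalized counts per animal of P2rx2 against Calb2 (left, linear axes from 0) and of P2rx6 against the summed normalized counts of choroid plexus markers (right, x axis on a log scale). Each point is 1 of 41 animals, coloured by treatment and shaped by code form. P2rx2 rose with Calb2 across animals of every group, with PB animal 7 at 112 above the rest, and P2rx6 was highest in animals with high choroid plexus sums.

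The remaining receptors had weaker companions. The closest to P2rx7 were Zfp18 (0.625), Zfp36l2 (0.619) and Nucb2 (0.610), and its rho with the summed markers of hippocampal neurons was -0.589. The closest to P2ry1 were Epm2aip1 (0.646), Pafah1b1 (0.644) and Rock2 (0.638), and to P2rx4 Peg12 (0.589), Pik3c3 (0.564) and LOC100174910 (0.559). Adora2a was closest to Mmp17 (0.587), Krt1 (0.582) and Kiss1r (0.562), Adora2b to Ddx23 (0.609), Homer3 (0.551) and Psmc4 (0.543), and the P2rx1 transcript NM_012997 to Lzts1 (0.631), Mogat2 (0.621) and Usp43 (0.606). With the treatment means removed, those of NM_012997 fell to 0.485, 0.387 and 0.362. Its values also include the division of the P2rx1 count among transcripts, so these correlations are not of the gene's level alone. No marker sum reached a rho of 0.4 in size with P2rx4, P2ry1, Adora2a or Adora2b.

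Few of the other genes of the pathway passed an adjusted p of 0.05, which does not show that the rest were unchanged. Of the 9 remaining purinergic and adenosine receptors listed, P2ry4, P2ry6, P2ry12, P2ry13 and P2ry14 were tested and 0 of 5 passed an adjusted p of 0.05 in any comparison. P2ry12, the ADP receptor of microglia, averaged 190 ± 23.96 in VEH, 190 ± 30.5 in PB and 181 ± 32.1 in LEV. P2rx3, P2ry2, P2ry10 and Adora3 were too low to test, and Adora3, the fourth adenosine receptor, averaged 12.0 ± 3.601 in VEH, 11.5 ± 3.05 in PB and 10.8 ± 2.57 in LEV.

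Of 7 transcripts for ATP release and vesicular loading, 1 fell after PB, that of Panx2, a pannexin of neurons, where 3.46% of all transcripts were lower at an adjusted p under 0.05. It averaged 2012 in VEH, 1778 in PB and 2018 in LEV, and the log2 fold change of PB was -0.18 against VEH (SE 0.05, edgeR adjusted p = 0.0259, lower in 13 of 14 animals) and -0.18 against LEV (SE 0.05, edgeR adjusted p = 0.0241). Of 10 transcripts for the breakdown of extracellular nucleotides, 0 passed for PB against VEH. Entpd3, an ectonucleotidase that removes phosphates from ATP and ADP, was lower in PB than in LEV, at means of 91.2 and 123 (log2 fold change -0.43, SE 0.09, edgeR adjusted p = 0.00314, lower in 13 of 14 animals). It was the one listed transcript that passed both limits, against 0.582% of all transcripts in that comparison. Against VEH, whose mean was 110, its change was -0.27 for PB (edgeR adjusted p = 0.0598) and 0.16 for LEV (edgeR adjusted p = 0.856).

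None of the 12 transcripts for adenosine uptake and metabolism, adenosine kinase (Adk) among them, passed an adjusted p of 0.05 in any comparison. They stand for 11 genes, since Slc29a2 was entered as a pair of rows with the same values. Of 23 transcripts for the G proteins and effectors of these receptors, 1 fell after PB, against the same 3.46% of all transcripts. It was NM_019132 of Gnas, the stimulatory G protein that A2 receptors use. Its log2 fold change was -0.11 against VEH (SE 0.03, edgeR adjusted p = 0.0255, lower in 11 of 14 animals) and -0.15 against LEV (SE 0.03, edgeR adjusted p = 0.00336, lower in 14 of 14 animals). The other tested transcripts of Gnas, NM_001159653 and NM_001159656, had changes of -0.09 and 0.10 against VEH, and overlapping transcripts of one gene share reads. Over all of these lists, Panx2 and Gnas passed an adjusted p of 0.05 for PB against VEH, where 5.39% of all transcripts did, and Panx2, Entpd3 and Gnas for PB against LEV, where 4.45% did. For LEV against VEH 0 passed, against 0.00766% of all transcripts.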

How the data were processed

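Total RNA of 42 hippocampi was sequenced by the authors, who aligned the reads to rn6 with STAR 2.7.3a, per the submitters' processing notes, and obtained estimates of the count of each RefSeq transcript from the expectation-maximization method of Partek. The deposited table holds these estimated counts before any normalization, and 13.5% of them are not whole numbers. A second deposited table holds the authors' own comparisons (p-values, fold changes and group means) and was not used. These were rounded to whole numbers, and the fits were made by edgeR 4.0.16 under R 4.3.3 (TMM, filterByExpr by treatment, effective library sizes 9588079 to 13786159) in a single quasi-likelihood fit of treatment and code form over 41 animals, the form of the sample code being the only batch-like label. The scripts were tested on simulated data. Normalized counts are rounded counts divided by the effective library size, on a common scale. Intervals cover 95%.

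A read that fits several transcripts of a gene is divided among them by the estimation, so the division among transcripts is less certain than their sum. The counting is not stated to use strand. Transcripts with few counts have wide errors, and these are given with each value.

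The receptors, the pathway lists and the marker lists were chosen with earlier results of these data known. Named in the text were every transcript of the 10 receptor genes, the listed pathway transcripts with an adjusted p under 0.05 (P2ry12, Adora3, Adk and the other Gnas transcripts were added after their values were seen), and for each tested receptor the 3 transcripts with the highest rho over 41 animals (log2 CPM, prior count 2, code form means removed). Removing the treatment means as well was added after seeing the data. Alternatives were DESeq2 1.42.0, TMM replaced by its size factors, leaving off the filter or the code form term, a filter at a mean of 50 counts, subtraction of the code form before DESeq2, a block for the animal number, inclusion of VEH animal 7, fits of the compared groups alone, sums per gene symbol, no fold limit and each animal left out in turn. Promoters were taken from RefSeq (GRCr8) by symbol. The replicates are separate animals, and no litter is given for any of them.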

Additional observations from a re-analysis of the deposited data

Results flagged for a closer look

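The excluded VEH animal, number 7, was scaled like the others but entered no comparison. It lay above all 13 analysed VEH animals for a pair of receptors. Its normalized count of Adora1 was 1112, where the analysed VEH animals ran from 583 to 697, and its count of P2rx1 was 36.6, where they ran from 3.01 to 19.99. It lay below them for P2rx2, at 21.9 against 28.9 to 59.3, and for P2rx4, at 87.7 against 90.8 to 138, and inside their range for the other 6 receptor genes.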

How the results depend on the processing

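For PB against VEH, the count of receptor transcripts called was 0, and it was 1 with DESeq2, 1 when the code form was subtracted before DESeq2 (P2rx2 both times), 1 without a fold limit (Adora1) and between 0 and 1 when each animal was left out in turn. It was 0 for LEV against VEH and for PB against LEV under every alternative run. Of the 290 log2 fold changes of receptor transcripts under the 10 alternatives to the fit, 286 kept their direction and their side of the combined limits, and 2 (P2rx2, above) newly passed them. With the adjusted p alone, Adora1 for PB against VEH lost its call without the code form term (-0.13, edgeR adjusted p = 0.129, in place of 0.0190), and kept it under the other 9. The other 2, P2ry1 for LEV against VEH, turned from -0.01 to 0.0098 without the code form term and 0.0082 with all 14 VEH animals. The cause was not tested. With the animal number as a replicate block, 0 receptor transcripts were called in each comparison (Adora1 -0.13 with an edgeR adjusted p of 0.0423 and P2rx2 0.44 with 0.127, PB against VEH), and the blocked fit called 55 transcripts in place of 79. Animals with the same number did not deviate together, since their correlations ran from -0.269 to 0.329 for PB and VEH and 1 of 13 correlated best with its own number. Over all transcripts, PB against LEV gave 76 calls but 34 with all 14 VEH animals and 39 with DESeq2, and LEV against VEH gave 0 but 7 with DESeq2, 15 after subtraction, and 1 each without a filter and with a mean of at least 50 counts.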
